A study of Mus musculus with 9 samples.

Results

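The 35 genes described here encode aminoacyl-tRNA synthetases, 20 that work in the cytosol and 15 that work in mitochondria. They were chosen by name: a gene was a member when the array files gave 1 of its probes the symbol, or a synonym of it, of a listed synthetase. The enzymes for glycine (Gars) and lysine (Kars) serve both compartments and were kept with the cytosolic ones. The 35 members had 70 of the 40960 gene probes on the array, and all 35 were among the 16730 genes tested out of 27617 named features. For each gene the brightest of its probes that stood well above background was used.

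RNA was taken from 3T3-L1, fibroblasts of mouse origin grown as preadipocytes that can turn into adipocytes. All cultures were raised in 10% fetal bovine serum and then kept without serum for 48 h. A culture was left untreated (control) or given X-1 or X-3, which the series title calls derivatives of mangiferin, at 70 µM for 24 h. Each of these 3 groups had 3 one-colour (Cy3) arrays, 9 in all, and the design text speaks of independent experiments. Replicates of the same number shared a slide, and each group kept its own array position on all of them, so that position and group cannot be told apart.

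Of the 43379 gene spots on an array, 57.9% to 67.1% were well above background, and no member's probe was saturated. All 8 preadipocyte or fibroblast markers passed the filter on dim probes. With both compounds Pdgfra (-1.36 and -1.34), Pdgfrb (-1.43 and -1.21) and Thy1 (-0.84 and -0.85) were called lower, Ly6a (3.38 and 3.58), Cd34 (0.48 and 1.51) and Dlk1 (0.39 and 0.49) higher, and Col1a1 and Col1a2 were not called. With spike-in scaling Cd34 with X-1 (-0.31) and Dlk1 with both compounds (-0.48 and -0.27) were below 0 and not called. The Dlk1 call with X-1 was lost without any 1 of control replicates 1 and 3, X-1 replicates 2 and 3 and X-3 replicates 2 and 3 (0.30 to 0.42), and that with X-3 without control replicate 1 (0.40). None of 4 adipocyte and none of 3 endothelial markers did. Of 4 macrophage markers, Ptprc and Adgre1 did not pass, while Csf1r (log2 difference from control 1.11 with X-1 and 1.25 with X-3) and Cd68 (0.73 and 1.11) were called higher. Of 3 epithelial markers only Krt8 passed, and it was called higher (1.89 and 2.38). The part of such genes in the synthetase results was not tested, and in RNA from whole cultures fewer cells and less RNA per cell cannot be told apart. Levels are log2 intensity minus the array's 75th percentile, and they compare arrays within a probe, never 2 probes.

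Aminoacyl-tRNA synthetases join each amino acid to its tRNA, the step at which the genetic code is read into protein. The cytosol and the mitochondrion use separate enzymes for most amino acids, all of them encoded in the nucleus. In the cytosol several of the enzymes sit together in the multisynthetase complex, held by scaffold proteins, and many cytosolic synthetase genes are known targets of ATF4, the transcription factor of the amino acid response.

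A gene was called when limma's adjusted p, over all genes tested, was under 0.05. Most cytosolic synthetase transcripts were either not called or called lower. Of the mitochondrial ones some were called lower, some higher, and the rest were not called. The higher calls depended on the scaling: with spike-in scaling (replicates 2 and 3 only) 0 mitochondrial members were called higher with X-1 and 1 with X-3. That 1 was Lars2, whose probe is not read here as the synthetase mRNA (described below). With X-1, 15 of 35 members were called, 3 higher and 12 lower, where 56.3% of all genes tested were called. These were 7 of 20 cytosolic members (1 higher, 6 lower) and 8 of 15 mitochondrial members (2 higher, 6 lower). X-3 changed 19 of 35 members, 5 higher and 14 lower, against 55.3% of all genes. Here 9 of 20 cytosolic members (1 higher, 8 lower) and 10 of 15 mitochondrial members (4 higher, 6 lower) were called. The share of members called was thus near or below that of the whole array. By direction, the 12 and 14 of 35 members called lower stand beside 28.3% and 26.4% of all genes, and the 3 and 5 of 35 called higher beside 28% and 28.9%.

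The median log2 difference from control of the cytosolic members was -0.32 with X-1 and -0.22 with X-3, and that of the mitochondrial members was -0.20 and -0.06. Over all genes the medians were 0.06 and 0.05. Where arrays were scaled to spike-in RNA, which could be done with replicates 2 and 3 only, the median of all genes shifted by -0.89 with X-1 and -0.70 with X-3. The cytosolic medians then were -1.21 and -1.02 and the mitochondrial ones -1.12 and -0.83. With median scaling they were -0.52 and -0.42 (cytosolic) and -0.41 and -0.26 (mitochondrial). The cytosolic X-3 median was -0.02 on slide 1 alone and 0.13 over the mean of kept probes, the mitochondrial X-3 median was -0.34 over the mean of mRNA probes, and the mitochondrial X-1 median was -0.31 without control replicate 1 and -0.11 without X-1 replicate 1. All directions below are relative to the array's own 75th percentile. A member's call on the probe that stood for its gene is marked where its direction turned with the spike-in scaling. Other probes of a gene are not marked in this way, and the marks for partner genes are not complete.

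**Figure D1:**
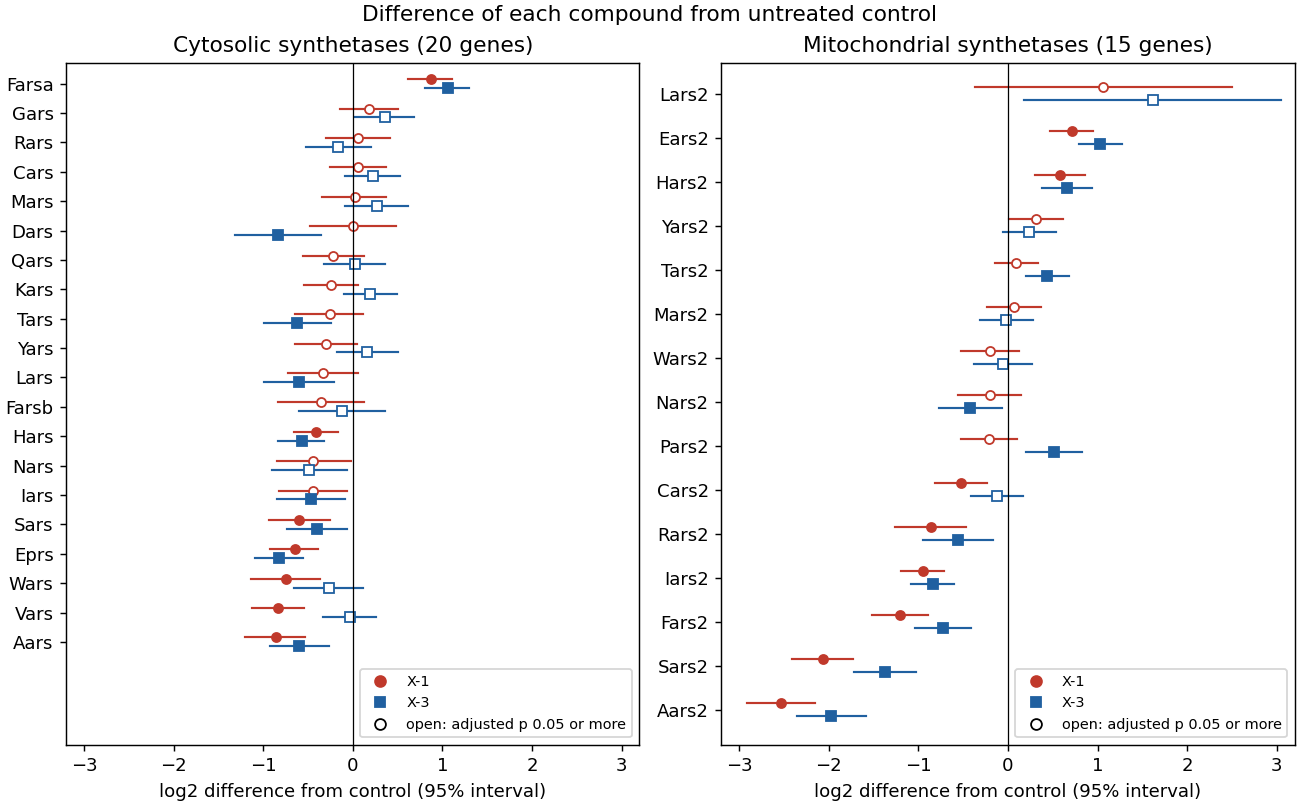
Log2 difference from untreated control (x axis) of each synthetase gene (rows) for X-1 (red circles) and X-3 (blue squares), with 95% intervals from limma, n = 3 arrays a group; open symbols were not called. Aars2 and Sars2 lie farthest to the left, and of the cytosolic members only Farsa was called higher, a call that was lost, in the same direction, with spike-in scaling.

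By the probe that stood for each gene, the 2 synthetases that fell most were those that charge mitochondrial alanine and serine tRNA. A dimmer probe of Wars2, not the one used for that gene, was lower still with X-3 (-2.20, described below). Aars2, the mitochondrial alanyl-tRNA synthetase, had levels of 0.53, 0.62 and 0.59 on the control arrays. On the X-1 arrays they were -2.15, -1.86 and -1.82, and on the X-3 arrays -1.05, -1.51 and -1.61. The groups did not overlap, and every treated array lay at least 1 log2 unit below every control. The difference of X-1 from control was -2.53 ± 0.17 (SE), 5.76-fold lower, with an adjusted p of 2.95e-06 in limma. X-3 gave -1.97 ± 0.17, 3.92-fold lower, with an adjusted p of 1.59e-05.

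Sars2, the mitochondrial seryl-tRNA synthetase, stood at -0.71, -0.45 and -0.45 in the controls. It stood at -2.48, -2.58 and -2.77 with X-1 and at -1.68, -1.95 and -2.10 with X-3. Here too the 3 groups were apart from one another, with X-1 the lowest. The fall was 4.21-fold with X-1 (log2 difference -2.07 ± 0.15, adjusted p 5.06e-06) and 2.59-fold with X-3 (-1.37 ± 0.15, adjusted p 6.97e-05). Fars2, the single-chain mitochondrial phenylalanyl-tRNA synthetase, had control levels of -1.22, -0.86 and -0.93, against -2.32, -2.17 and -2.12 with X-1 and -1.85, -1.59 and -1.75 with X-3. Its groups again did not overlap, and the differences from control were -1.20 ± 0.14 (adjusted p 8.21e-05) and -0.73 ± 0.14 (adjusted p 0.00194).

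Smaller falls passed the test for 4 more mitochondrial members. Iars2, for isoleucine, fell with both compounds (log2 differences -0.95 and -0.84), as did Rars2, for arginine (-0.86 and -0.56). The Rars2 call with X-3 was lost without control replicate 2 (-0.46, adjusted p 0.0837) and without control replicate 3 (-0.51, adjusted p 0.0754). Cars2, for cysteine, fell with X-1 (-0.52) and was at -0.12 with X-3, where it was not called. The second Cars2 mRNA probe was at -0.62 with X-1 (adjusted p 0.0109) and at -0.56 with X-3 (adjusted p 0.0177). Both were called in a limma fit of every kept probe on its own, so the Cars2 result with X-3 depends on the probe. Nars2, for asparagine, was called lower with X-3 alone (-0.42, adjusted p 0.0461 against -0.20 with X-1), and with the replicate as a block that adjusted p was 0.0522. Leaving out any of 5 single arrays (control replicates 2 and 3, X-1 replicate 2, X-3 replicates 2 and 3) also ended the Nars2 call, with values from -0.34 without control replicate 2 to -0.42 without X-1 replicate 2.

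Some mitochondrial members went the other way. Ears2, the mitochondrial glutamyl-tRNA synthetase, rose from -0.71, -0.66 and -0.75 in the controls to 0.07, 0.01 and -0.08 with X-1 and 0.36, 0.33 and 0.27 with X-3. Its 3 groups did not overlap, and the difference was 0.71 ± 0.10 with X-1 (adjusted p 3.8e-04) and 1.03 ± 0.10 with X-3 (adjusted p 4.39e-05), although with spike-in scaling it was -0.22 and 0.31, neither of them called. Hars2, for histidine, rose by 0.58 and 0.66, and with spike-in scaling it was at -0.40 and -0.16. With X-3 alone Pars2, for proline, was called higher (0.51, adjusted p 0.0113), and so was Tars2, for threonine (0.44, adjusted p 0.00675). After spike-in scaling these values were -0.35 and -0.31. These calls of Hars2 (with both compounds), Pars2 and Tars2 were also lost when arrays were scaled to their median.

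Mars2 (0.07 and -0.02), Wars2 (-0.20 and -0.06) and Yars2 (0.31 and 0.24), for methionine, tryptophan and tyrosine, were not called with either compound. Wars2 rests on the choice of probe: its 2 other kept mRNA probes fell, by 1.73 and 1.79 with X-1 and by 1.25 and 2.20 with X-3, each called in a fit of every kept probe on its own.

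**Figure D2:**
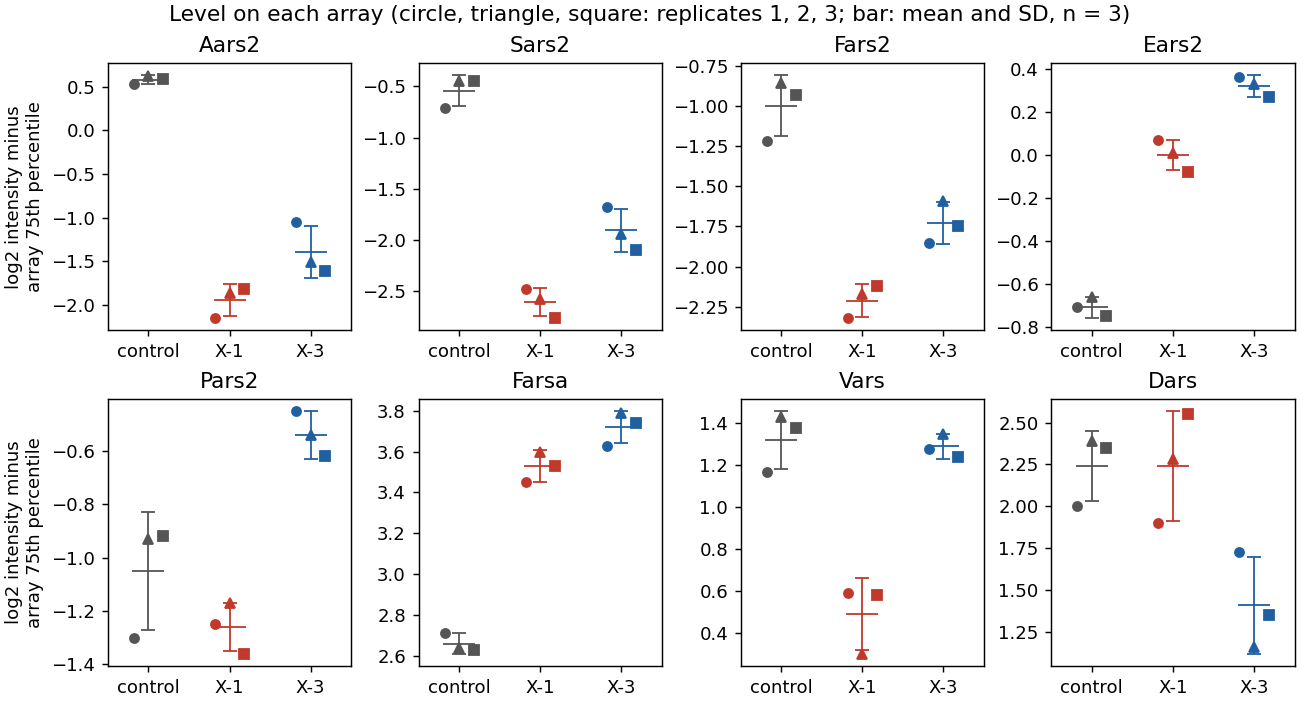
Level of 8 synthetase genes on each of the 9 arrays (y axis, log2 intensity minus the array's 75th percentile; scales differ between panels), by group; symbols give the replicate number, bars the mean and SD (n = 3). Treated arrays lie below controls for Aars2, Sars2 and Fars2 and above them for Ears2 and Farsa, while Vars is low with X-1 alone and Dars with X-3 alone. The rise of Ears2 with X-1 turned with spike-in scaling.

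Among the cytosolic enzymes outside the multisynthetase complex, 6 of 12 were called with X-1 (1 higher, 5 lower) and 5 of 12 with X-3 (1 higher, 4 lower). These counts stand beside 56.3% and 55.3% of all genes called. Farsa, the alpha subunit of phenylalanyl-tRNA synthetase, was the 1 that rose. It had levels of 2.71, 2.64 and 2.63 in the controls, 3.45, 3.60 and 3.53 with X-1, and 3.63, 3.79 and 3.74 with X-3. No arrays of the 3 groups overlapped. The difference was 0.87 ± 0.11 (adjusted p 1.32e-04) with X-1 and 1.06 ± 0.11 (adjusted p 4.5e-05) with X-3. The other 2 mRNA probes of Farsa gave smaller values, 0.11 and 0.25 with X-1, where neither was called, and 0.61 and 0.67 with X-3, where both were called. Farsb, the beta subunit of the same enzyme, was not called (-0.36, adjusted p 0.179, and -0.12, adjusted p 0.649). The changes of the 2 subunits were not tested against each other.

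Aars, for alanine, fell from 5.65, 5.91 and 5.89 to 4.72, 5.09 and 5.04 with X-1 and to 5.24, 5.35 and 5.07 with X-3. Treated and control arrays did not overlap (-0.86 ± 0.15, adjusted p 8.8e-04, and -0.60 ± 0.15, adjusted p 0.00736). Its second mRNA probe gave -0.83 and 0.04, so the fall with X-3 rests on 1 probe. Sars, for serine, fell by 0.60 with X-1 and by 0.40 with X-3, where its adjusted p was 0.0473 and became 0.0608 with the replicate block. The X-3 call of Sars was also lost without any of 7 single arrays (all but X-1 replicate 1 and X-3 replicate 1), with values from -0.29 without X-3 replicate 3 to -0.43 without control replicate 2 or 3.

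Hars, for histidine, was called lower with both compounds (-0.41 and -0.57); without control replicate 3 its X-1 value was -0.36 with an adjusted p of 0.0548. Wars, for tryptophan, fell with X-1 (-0.75, adjusted p 0.00456) and was at -0.27 with X-3. The second probe of Wars was at -0.23 with X-1 and at 0.59 with X-3 (adjusted p 0.0456 over all kept probes), the opposite sign. Tars, for threonine, was called with X-3 alone (-0.62, adjusted p 0.0111, against -0.26 with X-1), and its second probe gave -0.98 with X-3 and -0.46 with X-1. In a limma fit of every kept probe on its own, the second probe was called with both compounds (adjusted p 5.04e-04 with X-3 and 0.0254 with X-1). The Tars result with X-1 therefore depends on the probe. The members Cars, Gars, Nars and Yars were called with neither compound, their differences ranging from -0.49 for Nars with X-3 (adjusted p 0.05) to 0.36 for Gars with X-3 (adjusted p 0.0596).

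Of the 8 enzymes of the multisynthetase complex, 1 was called lower with X-1 and 4 were called lower with X-3, none of them higher. Among all genes 28.3% were called lower with X-1 and 26.4% with X-3. The X-3 calls included Dars, whose probes disagreed in direction (described below). Eprs, the joined glutamyl- and prolyl-tRNA synthetase, fell with both. Its levels were 3.53, 3.71 and 3.66 in the controls, 2.91, 2.97 and 3.05 with X-1, and 2.92, 2.82 and 2.68 with X-3. Every treated array lay below every control array (-0.65 ± 0.12, adjusted p 0.00122, and -0.82 ± 0.12, adjusted p 3.39e-04). All 4 probes of Eprs gave values of that size, between -0.69 and -0.56 with X-1 and between -0.85 and -0.68 with X-3. In a limma fit of every kept probe on its own, the probe used and another that covers nearly the same bases were called. The remaining probes were not (adjusted p 0.308 and 0.0913 with X-1, 0.139 and 0.0611 with X-3).

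Lars, for leucine, was called lower with X-3 (-0.60, adjusted p 0.0158, against -0.33 with X-1). The X-3 call of Lars was also lost without control replicate 1 (-0.55, adjusted p 0.05) and without X-3 replicate 3 (-0.47, adjusted p 0.0593). Iars, for isoleucine, was close to the threshold on both sides (-0.44, adjusted p 0.0513, and -0.47, adjusted p 0.0391). A second mRNA probe of Iars, fitted on its own in limma, was not called (-0.34, adjusted p 0.214, and -0.32, adjusted p 0.237). Without any of 6 single arrays (control replicates 2 and 3, X-1 replicate 3 and all 3 of X-3) the X-3 call of Iars was lost, with values from -0.34 without control replicate 2 to -0.50 without control replicate 3 or X-3 replicate 2. Kars, Mars, Qars and Rars were called with neither compound, with differences between -0.24 (Kars, X-1) and 0.27 (Mars, X-3). The second mRNA probe of Qars, in a limma fit of every kept probe on its own, was called higher with X-3 (0.35, adjusted p 0.0243).

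Setting the cytosolic and mitochondrial enzymes for 1 amino acid side by side showed pairs that moved alike and pairs that did not. For alanine and serine both enzymes fell, the cytosolic by 0.86 and 0.60 and the mitochondrial by 2.53 and 2.07 with X-1. For phenylalanine the pair was opposed, with Farsa higher and Fars2 lower with both compounds. For histidine it was opposed the other way, with Hars at -0.41 and Hars2 at 0.58 with X-1. For glutamate the joined enzyme Eprs fell (-0.65 and -0.82) while Ears2 rose (0.71 and 1.03). For arginine Rars was not called (0.06 and -0.16) and Rars2 fell. Neither enzyme for methionine or tyrosine was called with either compound. These are differences of single probes, and the spike-in scaling turned the called ones of Hars2 and, with X-1, of Ears2, besides several that were not called.

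Only 1 pair of compounds can be compared, X-3 with X-1, at the same dose and time. Between them 4 of 35 members were called, 3 of them higher with X-3 and 1 lower, where 10.5% of all genes were called (6.98% higher and 3.57% lower). The median difference X-3 minus X-1 was 0.18 over the cytosolic members and 0.32 over the mitochondrial members, against 0.01 over all genes. Vars, the valyl-tRNA synthetase, was the clearest. It had levels of 1.17, 1.43 and 1.38 in the controls, 0.59, 0.30 and 0.58 with X-1, and 1.28, 1.35 and 1.24 with X-3. The X-1 arrays lay below all others, and the X-3 arrays lay among the controls. X-1 differed from control by -0.83 ± 0.13 (adjusted p 5.39e-04) and X-3 by -0.03 (95% interval -0.33 to 0.26). X-3 exceeded X-1 by 0.80 ± 0.13 (adjusted p 0.00895), and the second Vars probe gave 0.91.

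Dars, for aspartate, showed the reverse order. Its levels were 2.00, 2.39 and 2.35 in the controls, 1.90, 2.28 and 2.55 with X-1, and 1.73, 1.16 and 1.35 with X-3. The X-3 arrays lay below all others, while X-1 and control overlapped. X-3 was below X-1 by 0.83 ± 0.21 (log2 difference -0.83, adjusted p 0.0407), and all 4 Dars probes gave a lower value with X-3 than with X-1, from -0.61 to -1.10. The adjusted p was between 0.0625 and 0.138 without any of 6 single arrays (control replicates 2 and 3, X-1 replicates 2 and 3, X-3 replicates 2 and 3), where the difference ran from -0.68 to -0.83. With the replicate block the adjusted p was 0.0577, but same-numbered X-1 and X-3 samples did not deviate together, so the block is not borne out there.

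Pars2 and Sars2 were higher with X-3 than with X-1. Pars2 stood at -1.30, -0.93 and -0.92 in the controls, at -1.25, -1.17 and -1.36 with X-1 and at -0.45, -0.54 and -0.62 with X-3. Its X-3 arrays lay above all the others (X-3 minus X-1 0.72 ± 0.14, adjusted p 0.015). The call was lost without X-1 replicate 3 (0.67, adjusted p 0.0654) and without X-3 replicate 2 (0.72, adjusted p 0.0526). For Sars2 the difference was 0.70 ± 0.15 (adjusted p 0.0233), and the adjusted p was 0.0762 without X-1 replicate 2, 0.0936 without X-1 replicate 3 and 0.0662 without X-3 replicate 2, at differences of 0.62 to 0.72.

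The other 31 members were not called between the compounds, which does not show that X-1 and X-3 act alike on them. With each kept probe fitted on its own in limma, a second mRNA probe was called higher with X-3 than with X-1 for Qars (0.60, adjusted p 0.0166). The same held for Tars2 (0.75, adjusted p 0.0296). For Aars2 the difference was 0.56 (95% interval 0.17 to 0.94, adjusted p 0.0695), for Kars 0.43 (0.13 to 0.73) and for Yars 0.46 (0.12 to 0.81). Within slides the mitochondrial members other than Lars2 were higher with X-3 than with X-1 in 14 of 14 cases on slide 1, in 11 of 14 on slide 2 and in 11 of 14 on slide 3. The cytosolic members were so in 17, 12 and 9 of 20 cases. Over all genes 10706, 7930 and 8255 of 16730 were higher, so slide 1 stood apart for the whole array too.

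**Figure D3:**
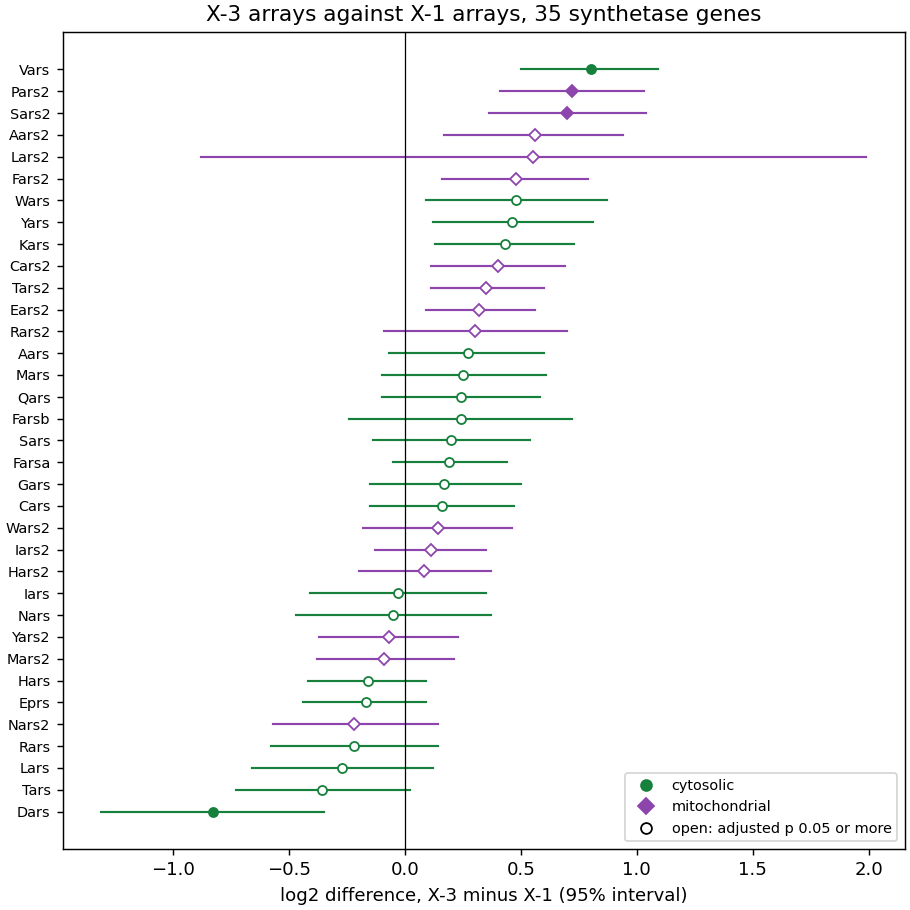
Log2 difference of X-3 minus X-1 (x axis) for each of the 35 genes (rows), with 95% intervals from limma, n = 3 arrays a group; green circles are cytosolic and purple diamonds mitochondrial members, and open symbols were not called. The called members are Vars, Pars2 and Sars2, higher with X-3, and Dars, lower with X-3; the wide interval belongs to Lars2.

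The probes of a gene did not always move together. Of the 67 member probes above background, 57 were designed to a RefSeq mRNA and 10 to a cDNA clone. The mRNA probes had a median difference from control of -0.26 with X-1 and -0.12 with X-3. The clone probes had medians of 0.98 and 0.82, with 6 of 10 called higher with X-1 and 5 of 10 with X-3, and none called lower. Counted from the brightest of all probes, the clone probes ranked between 29.7% (Hars) and 58.7% (Yars2). The probes that stood for the genes ranked between 0.127% (Lars2) and 42.0% (Mars2). The part of brightness in this contrast was not tested. Over all 4052 kept probes designed to such clones the medians were 0.28 and 0.18, and 30.8% and 29.8% were called higher. The following probes of Iars2 are shown because they lie in 1 gene, on the same strand of mm9, and gave opposite differences.

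Iars2 mRNA probe, chr1:187111041-187111948, minus strand: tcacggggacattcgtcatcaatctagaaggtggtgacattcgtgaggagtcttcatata
Iars2 clone probe, chr1:187135834-187135893, minus strand: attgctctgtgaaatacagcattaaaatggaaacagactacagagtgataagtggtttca

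Each probe is 60 bases long. The mRNA probe covers a genomic stretch longer than itself, so it joins sequence from either side of an intron, while the clone probe matches 1 unbroken stretch. A gene annotation of this build was not used here, so exon or intron is not assigned.

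The Dars clone probe rose from -3.07, -3.90 and -4.10 in the controls to -0.32, -1.24 and -1.31 with X-1 and to -2.32, -1.57 and -1.68 with X-3. All treated arrays lay above all controls (2.73 ± 0.36, adjusted p 2.13e-04, and 1.83 ± 0.36, adjusted p 0.00241), while the mRNA probe that stood for Dars gave 0.00 and -0.83. The mRNA probes of Dars themselves did not share a direction: the other 2 gave 0.50 and 1.34 with X-1, and -0.60 and 0.73 with X-3, all of them called. The fall of Dars below control with X-3 therefore depends on the probe. All Dars probes had X-3 below X-1, but they shared only that sign. Fitted on their own in limma, the clone probe (adjusted p 0.152) and the dimmest mRNA probe (adjusted p 0.105) were not called between the compounds.

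Iars2 was split between its 2 printed probes. The printed clone probe had levels of -4.59, -4.92 and -5.07 in the controls, -3.35, -3.35 and -3.45 with X-1, and -2.72, -3.41 and -3.27 with X-3. It rose by 1.48 and 1.73, both called, without overlap, where the mRNA probe fell by 0.95 and 0.84. A second Iars2 clone probe was at 1.00 with X-1, where it was called, and at 0.42 with X-3, where it was not (adjusted p 0.105). The clone probe of Hars rose by 2.08 and 1.32 and that of Iars by 1.56 and 1.67, against falls or lower values of their mRNA probes. For Farsa the clone probe moved with the mRNA (0.96 and 1.18), and for Ears2 it was at -0.43 and -0.47, not called, where the mRNA probe rose. The kept clone probe of Aars was at 0.66 and 0.46, not called, where the mRNA probe used for Aars fell.

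**Figure D4:**
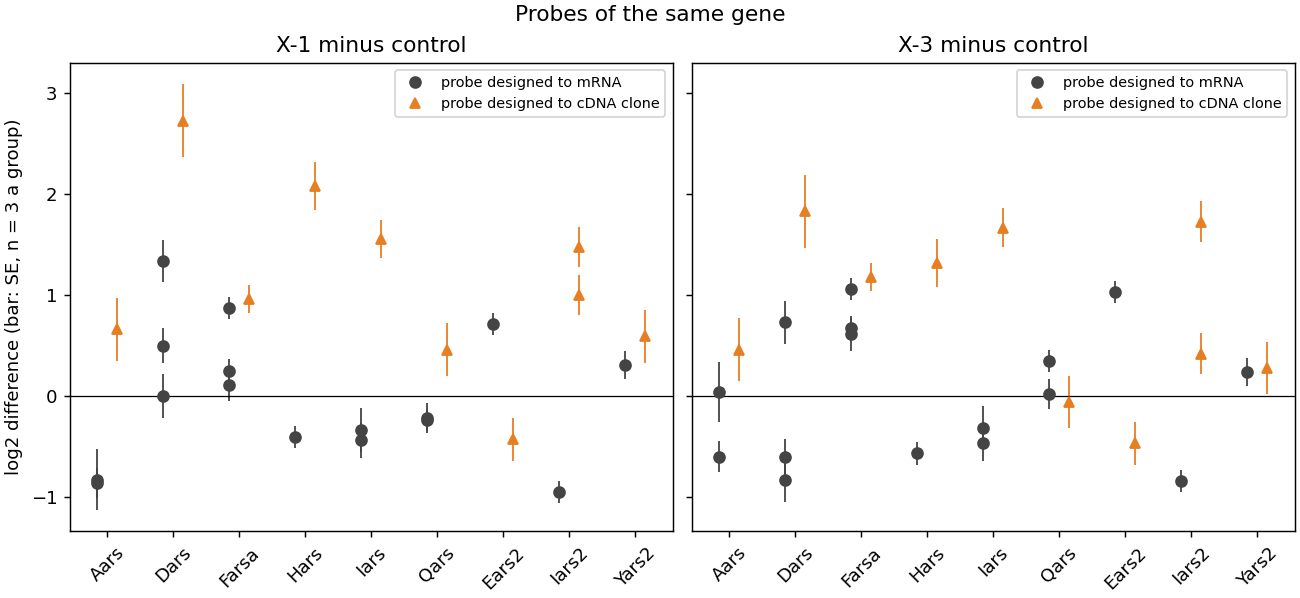
Log2 difference from control (y axis; bars are the SE from limma, n = 3 arrays a group) of every probe above background, for the 9 members with both kinds of probe; left X-1, right X-3. Orange triangles (probes designed to cDNA clones) lie above the grey circles (mRNA probes) in both panels for Aars, Dars, Hars, Iars and Iars2 and, narrowly, for Farsa and Yars2. They do so with X-1 only for Qars, and lie below for Ears2.

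Lars2, for mitochondrial leucine, was the most variable member. Its levels were 6.46, 7.15 and 7.96 in the controls, 8.77, 7.64 and 8.35 with X-1, and 7.29, 9.67 and 9.46 with X-3. The groups overlapped, the SE of a difference was 0.63, and neither difference was called (1.06, adjusted p 0.182, and 1.62, adjusted p 0.0559). Without X-3 replicate 1 both were called (1.06, adjusted p 0.0428, and 2.37, adjusted p 0.00185), the second also without control replicate 3 (2.00, adjusted p 0.0424) and with the replicate block (adjusted p 0.0461). The files list an accession of Rn28s1, a ribosomal RNA, beside that of Lars2 for this probe. The 1 probe named for Rn28s1 itself had -1.35, -0.52 and -0.05 in the controls, 1.26, 0.00 and 0.15 with X-1, and 0.71, 3.13 and 2.61 with X-3. On both probes the lowest array was control replicate 1 and the 3 highest were X-3 replicate 2, X-3 replicate 3 and X-1 replicate 1. The Lars2 value was therefore not read as that of the synthetase mRNA, and without it the mitochondrial counts stayed at 8 and 10 called.

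ATF4 and its partners bind an element whose core reads TGATGNAA. This motif was searched on both strands in RefSeq's promoter windows (GRCm38.p6), which run from 250 bases before to 50 bases after a gene's start. It was found in 5 of the 13 cytosolic members that had a window (38.5%) and in 0 of the 13 mitochondrial ones, against 4.51% of 27025 genes. Cars, Hars, Lars, Nars, Rars, Vars, Wars, Hars2 and Pars2 had no window in the table. Matches are printed on the gene's strand with the motif in capitals (TTNCATCA is the same motif on the other strand). They are shown because only cytosolic members held one in these windows.

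Aars, chr8:111033840-111033869, plus strand: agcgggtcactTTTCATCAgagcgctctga
Gars, chr6:55037960-55037989, plus strand: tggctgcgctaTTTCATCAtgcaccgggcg
Iars, chr13:49682126-49682155, plus strand: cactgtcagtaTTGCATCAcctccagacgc
Tars, chr15:11399655-11399684, minus strand: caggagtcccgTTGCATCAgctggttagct
Yars, chr4:129189895-129189924, plus strand: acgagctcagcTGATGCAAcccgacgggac

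The Gars match begins 30 bases before the gene's start and that of Tars 15 bases before it. None of these 5 members was called higher with either compound. Aars was lower with both, Iars and Tars with X-3, and Gars and Yars were not called. A match says only that these letters are in the window.

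Atf4 itself, measured on the same arrays, rose with both compounds. Its levels were 0.86, 0.83 and 0.79 in the controls, 2.33, 2.24 and 2.26 with X-1, and 2.14, 2.38 and 2.37 with X-3. The treated arrays were all above the controls (1.45 ± 0.11, adjusted p 7.63e-06, and 1.47 ± 0.11, adjusted p 8.81e-06), and X-3 and X-1 overlapped. Of the 18 genes listed for the amino acid response, 5 were called higher and 4 lower with X-1, and 5 higher and 9 lower with X-3, beside 56.3% and 55.3% of all genes called. The medians were -0.05 and -0.39, against 0.06 and 0.05 over all genes. Those that rose included Cebpg, a dimer partner of ATF4 (1.52 and 1.16), the pseudokinase gene Trib3 (0.89 and 0.68) and Slc7a11, the cystine transporter, which rose by 2.13 with X-1 and 0.80 with X-3. With spike-in scaling the X-3 values of Trib3 and Slc7a11 were -0.10 and 0.00.

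Of the enzymes that make serine, Phgdh, the first, fell by 1.92 and 2.08, and Psph, the last, by 1.10 and 1.45. Psat1, the enzyme between them, was at -0.08 with X-1 (adjusted p 0.763) and at -0.56 with X-3 (adjusted p 0.0416), a call lost without control replicate 2 (-0.45, adjusted p 0.14) or 3 (-0.52, adjusted p 0.114), X-1 replicate 3 (adjusted p 0.0511) or any X-3 array (adjusted p 0.0563 to 0.117). Shmt2, which turns serine into glycine in mitochondria, fell by 0.97 and 0.57, and Eif2ak4, the kinase that senses uncharged tRNA, by 1.10 and 0.92. Asns, asparagine synthetase, was at -0.03 with X-1 and at -0.45 with X-3 (adjusted p 0.0346, and 0.0518 with the replicate block). Ddit3 was not called (-0.33 and 0.11). Between the compounds Slc7a11 (-1.33, adjusted p 0.00491) and Slc7a5, a leucine transporter (-0.60, adjusted p 0.0456), were lower with X-3. The Slc7a5 call was lost without any of 7 single arrays (all but control replicate 1 and X-3 replicate 1, at differences from -0.50 to -0.65). It was also lost with the replicate block (adjusted p 0.0533), which the pairing does not bear out between the compounds. The X-3 call of Asns was lost without any of 5 arrays (the 3 control arrays and X-3 replicates 2 and 3, from -0.34 to -0.47).

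Of 3 genes listed for proofreading, 2 fell with both compounds, where 28.3% (X-1) and 26.4% (X-3) of all genes were called lower. Dtd1, which frees tRNA from D-amino acids, had levels of 1.86, 1.67 and 1.79 in the controls, -1.33, -1.20 and -0.95 with X-1, and -1.37, -0.65 and -0.80 with X-3. Without overlap it was 7.64-fold and 6.56-fold lower (-2.93 ± 0.19, adjusted p 2.95e-06, and -2.71 ± 0.19, adjusted p 6.14e-06). Aarsd1, which removes serine put by mistake on alanine tRNA, fell by 1.98 and 1.65, to -0.59, -0.72 and -0.56 and to -0.44, -0.13 and -0.31 from 1.40, 1.34 and 1.35. The third gene of this list, Prorsd1, was not called (-0.18 and 0.21).

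Of the 3 scaffold genes of the multisynthetase complex, Aimp2 rose from -1.65, -1.48 and -1.48 to -0.09, -0.27 and -0.26 with X-1 and to -0.25, -0.19 and -0.09 with X-3. These groups did not overlap with the controls (1.33 ± 0.12, adjusted p 1.43e-05, and 1.36 ± 0.12, adjusted p 1.59e-05). Aimp1 (-0.24 and -0.33) and Eef1e1 (-0.10 and -0.27) were not called. Of the 4 genes listed for the delivery of charged tRNA to the cytosolic ribosome, 3 were called higher with each compound: Eef1b2 (0.60 and 0.66), Eef1g (0.45 and 0.69) and Eef1a1 (0.45 and 0.41). Among all genes 28% (X-1) and 28.9% (X-3) were called higher. With spike-in scaling Eef1b2 was at -0.28 and -0.08, Eef1g at -0.45 and -0.07 and Eef1a1 at -0.37 and -0.39, and with quantile normalization the X-1 values of Eef1g and Eef1a1 were -0.05. The Eef1a1 calls were also lost without control replicate 1 (0.40 and 0.36) and without control replicate 3 (0.43 and 0.39), among others. Xpot, the exporter of tRNA from the nucleus, was at -0.27 with X-1 and fell by 0.63 with X-3 (adjusted p 0.00595), and the mean of its mRNA probes with X-3 was -0.25 (adjusted p 0.163).

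Mitochondria make glutaminyl-tRNA by an amidotransferase rather than by a synthetase of its own. Its subunit genes Gatb (-1.27, adjusted p 7.46e-05, and -0.88, adjusted p 8.27e-04) and Qrsl1 (-1.15, adjusted p 6.42e-05, and -0.78, adjusted p 7.6e-04) fell with both compounds, while Mtfmt, which formylates the initiator tRNA, was called higher with X-3 alone (0.42, adjusted p 0.0464; -0.41 with spike-in scaling). That call was lost without any single array other than X-1 replicate 1 or X-3 replicate 2, with values from 0.26 to 0.48. Gatc, the third subunit, was not called (-0.13 and 0.01). Of 6 mitochondrial elongation and initiation factors, 2 were called lower with X-1, and 1 lower and 1 higher with X-3. These counts stand beside 56.3% and 55.3% of all genes called. Tsfm fell with both (-0.81 and -0.90), Mtif2 with X-1 (-0.56, and -0.30, not called, over the mean of its probes), and Mtif3 rose with X-3 (0.60, adjusted p 0.00979; -0.20 with spike-in scaling). Tufm, the mitochondrial factor that carries charged tRNA, was not called (-0.20 and -0.11).

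**Figure D5:**
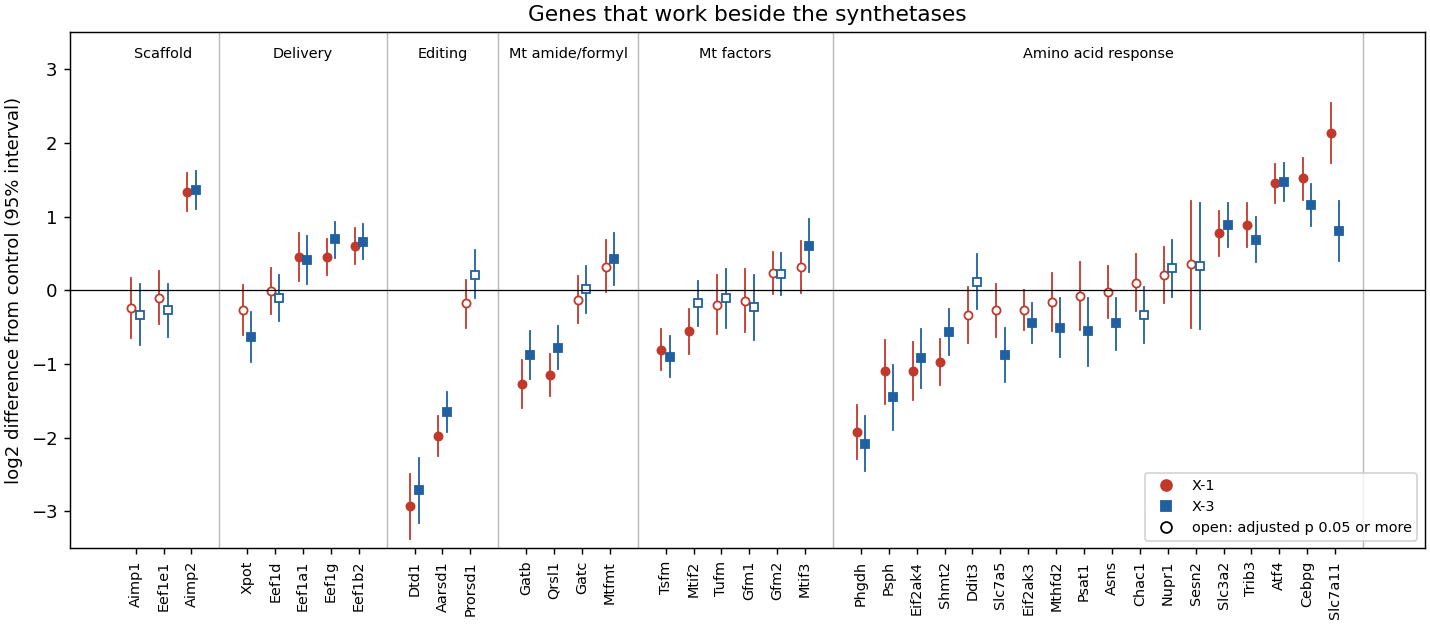
Log2 difference from control (y axis) of genes that work beside the synthetases, by list, for X-1 (red circles) and X-3 (blue squares), with 95% intervals from limma, n = 3 arrays a group; open symbols were not called. Dtd1, Aarsd1 and Phgdh lie lowest and Slc7a11, Cebpg and Atf4 highest with X-1; with spike-in scaling the values of Eef1b2, Eef1g and Eef1a1 and the X-3 values of Mtfmt, Mtif3 and Trib3 were below 0.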

How the data were processed

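Spot intensity values of 9 one-colour Agilent arrays were deposited as scanner output; per the file headers they were read, background-subtracted and detrended with Feature Extraction 10.5.1.1 (replicate 1) or 10.7.3.1 (replicates 2 and 3), with probe positions on mm9, while the submitters' processing notes name 9.1. The authors also deposited a table with a score per probe and array, whose scale is not stated, and it served as an alternative only.

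Here log2 intensity was averaged over a probe's spots without outlier flags and lowered by the array's 75th percentile. A probe was kept when well above background on all 3 arrays of a group, and the brightest kept probe stood for a gene. Groups came from the labels. The 9 arrays were fitted together with limma 3.58.1 (R 4.3.3), with Benjamini-Hochberg adjustment over 16730 genes, two-sided; the code was tested on simulated data. Nothing says that replicates were separate cultures beyond the words of the design text, so p-values measure the spread between these arrays. Same-numbered samples deviated together between control and X-1 (correlations 0.517, 0.317 and 0.271) and between control and X-3 (0.238, 0.112 and 0.23), but not between X-1 and X-3 (-0.041, -0.182 and 0.155), so the block applies to the first 2 comparisons; the slide carries the same numbers.

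Members and gene lists were chosen with earlier results of these data known. Values per array are given for members that differed from control by a log2 difference of at least 1, that differed between the compounds, or whose probes or scalings disagreed, and for partner genes with the largest called differences; other partner genes were named after their values were seen. The number of arrays limits the precision. Some sequences are not reported here.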

Additional observations from a re-analysis of the deposited data

How the results depend on the processing

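The total mitochondrial counts against control stayed within 1.5 times their value in every alternative, but the split did not. With X-1, 2 higher and 6 lower became 0 and 11 with spike-in scaling and 1 and 6 with median scaling. With X-3, 4 and 6 became 1 and 9 with spike-in scaling, where the 1 higher was Lars2. They became 2 and 6 with median scaling, where Lars2 was gained (1.41, adjusted p 0.042). Cytosolic calls with X-1 numbered 19 with spike-in scaling (all lower), 11 with the deposited scores and 11 with slide 1 left out, and those with X-3 numbered 15 with spike-in scaling (all lower). Between the compounds the counts were small and moved: cytosolic calls numbered 1 with median scaling, 4 with quantile normalization, 1 with no filter on dim probes, 4 with the mean of kept probes, 4 with the mean of mRNA probes (chosen after seeing the data), 1 with the replicate block, 4 with the deposited scores and 6 without slide 1. Mitochondrial calls there numbered 0 with median scaling, 4 with quantile normalization, 1 with normexp, 0 with no filter, 4 with the deposited scores and 9 without slide 1. Leaving out 1 array at a time gave 6 to 10, 7 to 10 and 1 to 3 cytosolic calls (X-1, X-3, X-3 against X-1) and 8 to 10, 8 to 11 and 0 to 3 mitochondrial calls. With the replicate block, which the pairing bears out for the compounds against control, Sars and Nars2 lost their X-3 calls, while Iars with X-1 (adjusted p 0.0205) and Lars2 with X-3 were gained. Members outside the calls that passed without 1 array were Farsb (-0.59) and Nars (-0.60 and, with X-3, -0.65) without control replicate 1, Fars2 between the compounds (0.48) without the same array, Iars with X-1 (-0.54 and -0.56) without control replicate 1 or X-1 replicate 2, Gars with X-3 when X-1 replicate 1 (0.36) or X-3 replicate 3 (0.47) was left out, Mars with X-3 (0.45) without X-3 replicate 3, and, without X-3 replicate 1, Iars (-0.44), Nars (-0.44), Yars (-0.30) and Yars2 (0.31) with X-1, Wars (-0.43) and Nars (-0.62) with X-3 and Tars (-0.54) and Fars2 (0.54) between the compounds.

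Of all calls, higher ones were 49.8% with X-1 and 52.3% with X-3, against 37.9% and 38.7% with median scaling and 13.6% and 18.3% with spike-in scaling. Signs of values called in either fit turned with spike-in scaling for X-1 in Cars (-0.84), Gars (-0.81), Mars (-0.91), Rars (-0.82), Ears2 (-0.22), Hars2 (-0.40), Mars2 (-0.80), Tars2 (-0.80) and Eef1b2 (-0.28), and for X-3 in Qars (-0.84), Yars (-0.66), Hars2 (-0.16), Pars2 (-0.35), Tars2 (-0.31), Eef1b2 (-0.08), Mtif3 (-0.20), Mtfmt (-0.41), Trib3 (-0.10) and Slc7a11 (0.00). Eef1a1 was at -0.37 and -0.39 with spike-in scaling, -0.05 and -0.01 with quantile normalization and -0.02 and 0.00 with the deposited scores, and Eef1g at -0.45 and -0.07 with spike-in scaling and, for X-1, -0.05 with quantile normalization and -0.02 with the deposited scores (differences in score units). The turned signs listed here do not cover every partner gene. The causes were not tested. Of the markers, Cd34 (-0.31) with X-1 and Dlk1 with both (-0.48 and -0.27) turned with spike-in scaling. Values of members called in neither fit turned there as well, for X-1 in Lars2 (-0.45) and Yars2 (-0.57) and for X-3 in Cars (-0.54), Gars (-0.38), Kars (-0.62), Mars (-0.56) and Yars2 (-0.59). With the mean of kept probes called signs turned for X-1 in Dars (1.14), Hars (0.84) and Iars2 (0.51), and for X-3 in Dars (0.28), Hars (0.37), Iars (0.29) and Iars2 (0.43), and uncalled ones in Iars (0.26) and Mars (-0.03) with X-1 and Wars (0.16) with X-3; clone probes enter that mean. With mRNA probes alone Dars with X-1 was at 0.61. Normexp used median spot signals, which every array had.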
